A study of Arabidopsis thaliana with 12 samples.

Results

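The genotype by red light interaction was the red light response of the double mutant b''ab''b less that of the wild type Col-0, measured gene by gene in whole seedlings of Arabidopsis thaliana. On the log2 scale it was the change from dark to red light in the mutant minus the same change in the wild type, so a positive value means a higher red-to-dark ratio in the mutant. It used all 12 of the 12 libraries and every gene of the deposited count table. Seeds of both genotypes had 3 days of cold on medium without sucrose, then white light of 25 µmol/m2/s for 3 h, and the seedlings grew for 4 days in the dark at 22 °C. Of each genotype, 1 group of 3 libraries stayed in the dark and 1 group of 3 received continuous red light of 8 µmol/m2/s for 1 h. The mutant takes its name from 2 regulatory subunits of protein phosphatase 2A (PP2A), B''α and B''β, and its alleles were not stated in the labels. The labels also do not call the replicates separate cultures, so the p-values reflect only differences among these samples, and those may be technical. RNA came from whole seedlings, in which fewer cells of a type and less RNA per cell cannot be told apart.

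In dark-grown seedlings the phytochrome-interacting factors (PIFs) hold back greening and promote growth of the hypocotyl. Red light converts phytochromes to their active form, which enters the nucleus and leads to the breakdown of PIFs, while the factor HY5 accumulates and turns on light-induced genes. PP2A is a phosphatase of a scaffold, a catalytic and a regulatory subunit, and the regulatory subunit directs it to its substrates.

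The libraries were made from 3′ tags, so that reads gather at transcript ends, and held 2874429 to 4979055 counts. Of 33655 genes in the table, 18487 had enough counts to be tested. Levels are given as CPM, counts scaled to library size with TMM factors, and 3 counts, the limit that a count of 0 allows, were worth 0.578 to 1.02 CPM (counting error only). Red light separated the libraries on the first principal component (45.5% of the variance). The second component (9.90%) set wild type dark replicate 1 (score 29.6) and mutant dark replicate 3 (26.1) apart from the other dark libraries (−20.8 to −7.93).

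The transcript of the B''α gene (AT5G44090) was lower in all mutant libraries than in any of the wild type. It stood at 31.2, 28.1 and 24.4 CPM in wild type dark, 27.9, 30.1 and 28.8 CPM in wild type red, 5.09, 6.29 and 6.12 CPM in mutant dark and 4.58, 3.88 and 4.24 CPM in mutant red. The mutant was lower in the dark (log2 −2.24, edgeR adjusted p = 2.63e-08) and in red light (log2 −2.76, edgeR adjusted p = 1.53e-09). The change with light differed between genotypes by −0.51 ± 0.26 (log2 ± SE, edgeR unadjusted p = 0.0763), which did not pass. The B''β gene (AT1G03960) had 8 to 20 counts in the wild type libraries and 3 to 9 in those of the mutant. Its interaction was 0.91 ± 0.63 (95% interval −0.38 to 2.21). Among dark libraries, B''β was lower in each mutant one (0.90 to 1.38 CPM) than in any wild type one (3.76 to 4.96 CPM). That genotype difference did not pass (log2 −1.87 ± 0.42, edgeR adjusted p = 0.226). Among red libraries the genotypes overlapped for B''β, and the difference of −0.96 ± 0.43 did not pass either. The TAIR10.1 annotation names the B''α and B''β genes only as calcium-binding EF-hand proteins. Since tags lying outside the disrupted part of a gene check nothing, the counts show less RNA from the 3′ end of B''α. For B''β they were lower in the mutant in the dark, but few and without a call, so its disruption stays unchecked.

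In the edgeR test no gene passed as responding differently to red light in the 2 genotypes. At a Benjamini-Hochberg adjusted p under 0.05, edgeR's quasi-likelihood test called 0 of 18487 genes (0%), limma-voom called 0 and DESeq2 called 1, the phosphate signalling gene SPX1. Without the filter on low counts edgeR called 28. That fit took each gene's spread from the trend over all genes, with no weight on its own replicates. With edgeR, SPX1 also had the smallest adjusted p (0.491), and every other gene was at 1.00. At an unadjusted p under 0.05 edgeR gave 613 genes (3.32%), 319 above 0 (1.73%) and 294 below (1.59%), where an equal share of the p-values would hold 924. DESeq2 gave 231 genes at that threshold and limma-voom 620. The median interaction over all tested genes was 0.01, with quartiles of −0.15 and 0.16.

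**Figure D1:**
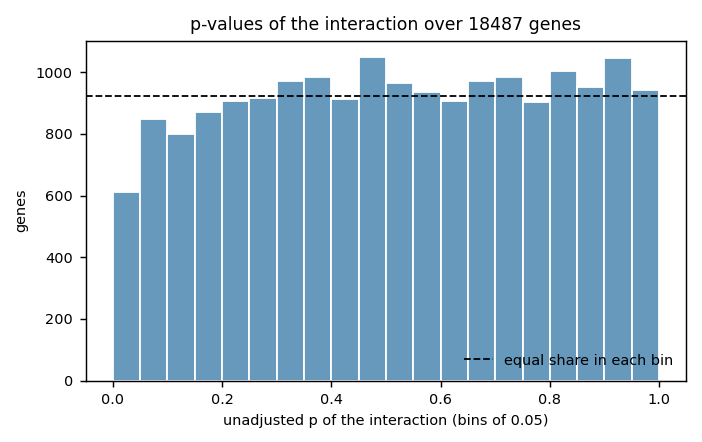
Number of genes in each bin of 0.05 of the unadjusted edgeR p of the interaction, over 18487 tested genes. The dashed line marks the equal share of 924 genes, and the first bin holds 613, the lowest of the 20 bins.

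The light responses themselves were large in both genotypes. Red light changed 2819 genes in the wild type (15.2%), of which 1954 rose (10.6%) and 865 fell (4.68%), and 2958 in the mutant (16%), of which 1983 rose (10.7%) and 975 fell (5.27%), by edgeR at adjusted p under 0.05. These responses share no library with each other. The 2137 genes called in both, 75.8% of the wild type's and 72.2% of the mutant's, all changed in the same direction. Across 13550 abundant genes, with mean log2 CPM no lower than 3, the responses correlated with r = 0.895, a description across genes, which are not independent replicates. The interaction shares libraries with each of these responses and with each comparison of the genotypes, so their values are set side by side without a test. Between genotypes, edgeR called 10 genes in the dark (0.0541%) and 15 in red light (0.0811%), 17 genes in all.

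The size of the response was then compared over genes that red light clearly regulated, taken from the mean response of both genotypes. Its error is independent of that of the interaction only where both responses are equally precise. That does not hold for every gene, and the B-box gene BBX30 had an SE of 0.33 in the wild type and 0.47 in the mutant. The mean response called 4602 genes (24.9%), and with a size of at least 1 on the log2 scale it gave 739 risen and 233 fallen genes. The risen genes had a median response of 1.45 in the wild type and 1.46 in the mutant. Their median interaction was 0.00, with 372 genes above 0, against 51% of all tested genes. The fallen genes had a median response of −1.27 in the wild type and −1.37 in the mutant. Their median interaction was −0.08, with 95 above 0. None in either set was called by edgeR. At an unadjusted p under 0.05 there were 42 risen (5.68%) and 20 fallen genes (8.58%), against 3.32% of all tested genes. Of these risen genes 29 were above 0 and 13 below, and of the fallen genes 5 were above and 15 below.

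The medians of the genotypes overlapped library by library. Relative to the wild type dark mean, the median risen gene lay at 1.45, 1.44 and 1.49 (log2) in the wild type red libraries and at 1.47, 1.42 and 1.44 in the mutant red libraries. The median fallen gene lay at −1.30, −1.32 and −1.22 in the wild type and at −1.42, −1.32 and −1.35 in the mutant. Among the 58 genes whose mean response was at least 3, 42 had an interaction above 0 (median 0.20; median response 3.64 in the wild type and 3.84 in the mutant), and none was called. Their 95% intervals had a median half-width of 0.93, against 0.51 over all tested genes.

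How large a difference the data allow followed from the 95% intervals. The interval lay within −1 to 1 on the log2 scale for 13267 genes (71.8%), for 61.4% of the risen set and for 44.2% of the fallen set. The median standard error of the interaction was 0.25, against 0.17 for the response of the wild type. An interaction of at least 1 in either direction was estimated for 311 genes (1.68%), and 289 of them had a mean log2 CPM under 3.

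**Figure D2:**
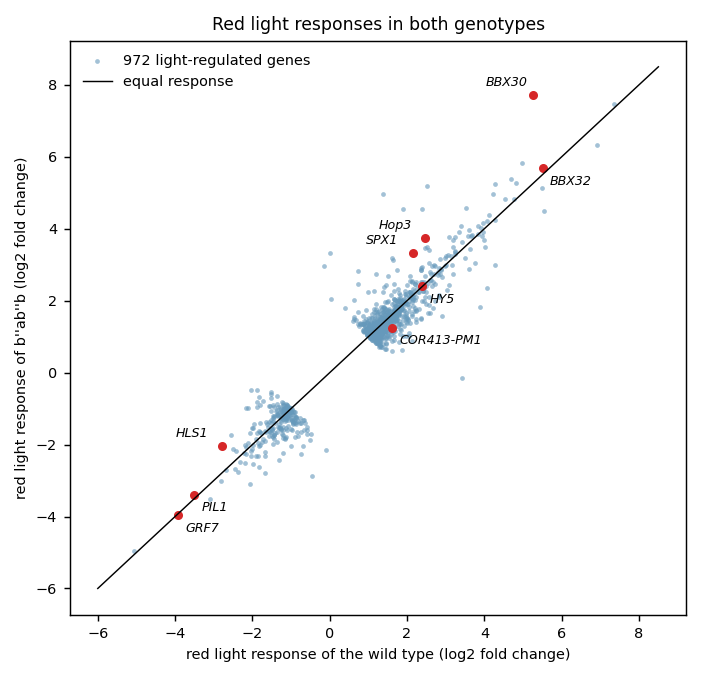
Red light response of the mutant (vertical, log2) against that of the wild type (horizontal, log2) for the 972 genes of the risen and fallen sets. The line marks equal responses; SPX1 and Hop3 lie above it and COR413-PM1 below it, while HY5, PIL1 and GRF7 lie on or close to it.

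Regulators such as HY5, PIL1, GRF7 and CCA1 changed in both genotypes, and the difference between genotypes passed for none of these 4. HY5 stood at 33.1, 32.0 and 35.7 CPM in wild type dark and at 176.9, 173.6 and 175.8 CPM in wild type red. In the mutant it stood at 28.5, 31.5 and 34.9 CPM in the dark and at 149.8, 179.7 and 175.5 CPM in red light. In each genotype every red library was above every dark library, and the rise was 2.39 on the log2 scale in both (interaction 0.01 ± 0.14, 95% interval −0.28 to 0.29). PIL1, a PIF-activated gene of shade growth, fell in both genotypes, from 18.1, 21.8 and 26.0 CPM to 0.980, 2.44 and 2.25 CPM in the wild type and from 18.16 to 24.1 CPM to 2.06, 1.94 and 1.75 CPM in the mutant (interaction 0.11 ± 0.45). GRF7, a growth-regulating factor, fell from 74.5 to 78.4 CPM to 3.18 to 6.07 CPM in the wild type and from 56.3 to 70.7 CPM to 3.05 to 4.58 CPM in the mutant (interaction −0.05 ± 0.28). The clock gene CCA1 rose by 1.75 in each genotype (interaction −0.01 ± 0.12).

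Of the 18 well-known light response genes, 17 had an interval within −1 to 1, and the exception was PIL1 (−0.83 to 1.04). The phytochrome A gene PHYA (−0.05 ± 0.10), the PIF genes PIF1 (0.01 ± 0.19), PIF3 (0.02 ± 0.16) and PIF5 (0.13 ± 0.14), and the photoprotective ELIP1 (0.04 ± 0.12) and ELIP2 (0.03 ± 0.10) had interactions of 0.13 or less in size. PIF4 had the largest size of the 18. It went from 10.4, 9.93 and 7.51 CPM to 37.2, 36.8 and 37.99 CPM in the wild type and from 11.2, 12.1 and 11.6 CPM to 33.4, 39.6 and 33.0 CPM in the mutant. Its interaction of −0.39 ± 0.21 did not pass (edgeR unadjusted p = 0.0686), and the red libraries of the genotypes overlapped. The PIF1 and XTH15 genes overlap a neighbouring gene in the annotation, and the strand setting of the counting is not known here, so their counts are uncertain.

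**Figure D3:**
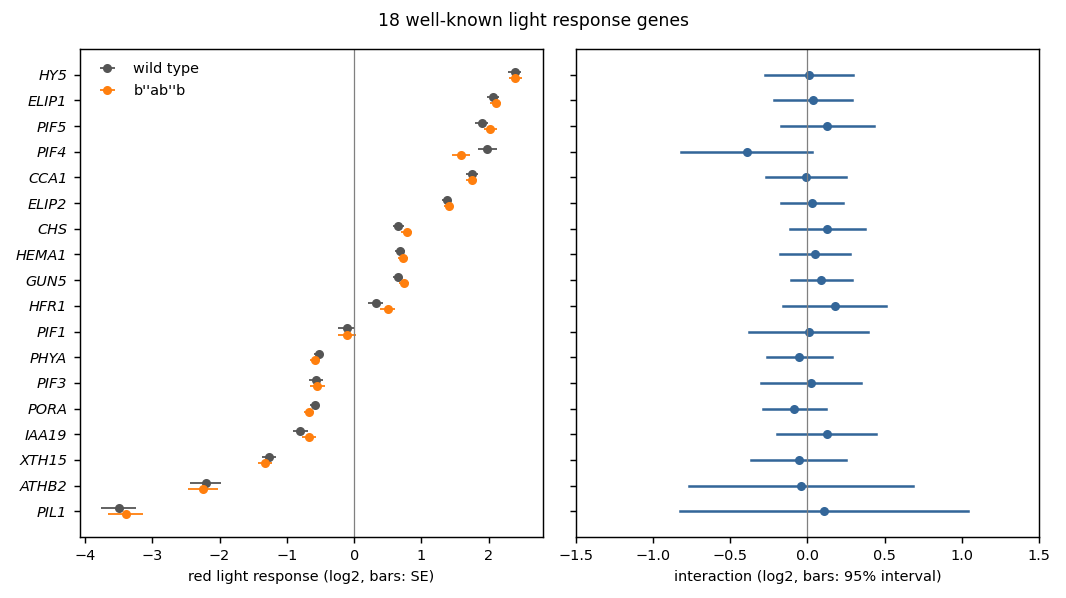
Left, red light response (log2, bars are SE) of 18 light response genes in each genotype; right, their interaction (log2, bars are 95% intervals). Every interval spans 0, and 17 of the 18 lie within −1 to 1.

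The 6 risen and 6 fallen abundant genes with the largest mean responses gave no call either. BBX32, a B-box regulator, rose from 0.963, 2.21 and 1.25 CPM to 55.6, 67.7 and 74.9 CPM in the wild type. The mutant levels of BBX32 rose from 1.36, 0.899 and 0.987 CPM to 63.4, 44.9 and 55.7 CPM (interaction 0.16 ± 0.53). BBX30, another B-box gene, had the largest interaction of the 12, 2.47 ± 1.07 (edgeR unadjusted p = 0.0313). It stood at 0.578, 1.38 and 0 CPM in wild type dark and at 0, 0 and 0.197 CPM in mutant dark, all but 1 at or under the worth of 3 counts, and at 22.2 to 29.9 CPM in wild type red and 22.7 to 24.2 CPM in mutant red. The red levels overlapped, and the interaction ran from 1.44 with limma-voom to 4.37 without both dark libraries that stood apart. The others ran from −1.05 ± 0.68 (AT3G53830, an RCC1 family gene) to 0.85 ± 0.76 (ASG4, a clock-type MYB factor), and RAV1, a repressor of growth, was at −0.02 ± 0.14.

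Gene lists for the pathways that light, phytochrome and PP2A act on were then read out. The 21 lists had 341 distinct tested members, of which edgeR called 0 and 11 (3.23%) had an unadjusted p under 0.05, against 3.32% of all tested genes. List medians ran from −0.06 (brassinosteroid genes) to 0.13 (root hair genes), and single libraries moved them. The root hair median was −0.25 without wild type dark replicate 3 and 0.26 without mutant dark replicate 3, so that list did not stay highest. The brassinosteroid median ran from −0.09 to 0.00 as each library was left out. In the same fits the flavonoid median (0.13) ran from 0.10 to 0.16, above the brassinosteroid range. The greening genes had narrow intervals. All 22 light-harvesting genes had intervals within −1 to 1, against 71.8% of all genes and 86.1% of those with a mean of at least 5 CPM. Their interactions ran from −0.02 to 0.15, with 19 above 0 (51% of all genes) and a median of 0.07. Of the 22, 20 rose in the wild type (10.6% of all genes) and 21 in the mutant (10.7% of all genes). Their median ran from 0.03 without mutant dark replicate 2 to 0.11 without mutant dark replicate 1. For the photosystem and Rubisco genes all 24 intervals lay within these limits, 21 values were above 0 and the median was 0.08, from 0.03 without mutant dark replicate 3 to 0.13 without mutant dark replicate 1. The 20 chlorophyll synthesis genes had a median of 0.07, with 15 above 0 (from 0.01 without wild type dark replicate 2 to 0.11 without wild type red replicate 1), and DVR, a reductase of chlorophyll synthesis, had the smallest p (0.30 ± 0.14, edgeR unadjusted p = 0.0427). Over all tested genes the median was 0.01, 51% were above 0 and 71.8% had an interval within −1 to 1.

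Growth and hormone genes showed wider spreads. The 33 auxin genes had a median of −0.03 (−0.07 to 0.00 as each library was left out), with none at an unadjusted p under 0.05. The 18 PIF-activated genes had a median of −0.05 (−0.10 to 0.06 in these fits). Of them 11 fell in the wild type (4.68% of all genes) and 11 in the mutant (5.27% of all genes). The gibberellin receptor gene GID1B went from 10.6, 8.82 and 10.6 CPM to 13.0, 15.7 and 14.2 CPM in the wild type and from 15.3, 13.5 and 11.5 CPM to 12.8, 11.9 and 9.99 CPM in the mutant. Its interaction was −0.69 ± 0.25 (edgeR unadjusted p = 0.0125), and its dark and red libraries overlapped in the mutant. HLS1, which keeps the apical hook closed, fell by 2.78 in the wild type and by 2.05 in the mutant (interaction 0.73 ± 0.40, 95% interval −0.10 to 1.55). The flavonoid enzyme gene 4CL3 rose by 1.67 in the wild type and by 2.46 in the mutant (interaction 0.79 ± 0.34, edgeR unadjusted p = 0.0310).

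The PP2A genes gave a median of −0.04 over 27 tested members (−0.07 to 0.02 as each library was left out). The scaffold subunit gene PP2AA3 had the smallest p, with 38.7, 50.2 and 42.3 CPM in wild type dark and 44.3, 38.2 and 42.0 CPM in wild type red. Mutant levels of PP2AA3 were 37.6, 39.5 and 37.7 CPM in the dark and 44.9, 51.5 and 48.4 CPM in red light. The mutant groups did not overlap while the wild type groups did, and the interaction was 0.39 ± 0.16 (edgeR unadjusted p = 0.0206, adjusted p = 1.00).

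Markers of other stages and cell types were counted beside these lists. Summed root hair markers ran from 46.9 to 84.8 CPM in wild type dark, 51.2 to 53.1 in wild type red, 58.0 to 95.9 in mutant dark and 57.5 to 75.9 in mutant red. The dividing cell markers summed to 59.0 to 61.4, 55.1 to 66.6, 55.6 to 63.8 and 57.5 to 64.7 CPM in the same order. Endodermis markers summed to 526.7 to 549.6, 576.5 to 610.5, 521.2 to 575.1 and 585.5 to 593.6 CPM. Seed stage markers were the most abundant, with 2598 to 3053 CPM in wild type dark, 2428 to 2743 in wild type red, 2946 to 3171 in mutant dark and 2660 to 2977 in mutant red. With the filter on low counts edgeR called no member of these 4 lists, while without it the late embryogenesis gene EM1 was called (4.14, edgeR adjusted p = 8.75e-04). That fit gave no weight to the spread among a gene's own replicates, and with the filter EM1 had an edgeR unadjusted p of 0.0326. EM1 stood at 18.9 CPM in wild type dark replicate 1 and at 0 to 7.59 CPM in the other libraries. The 4 medians lay between −0.01 and 0.13, and that of the seed stage list ran from −0.13 without wild type dark replicate 1 to 0.62 without mutant dark replicate 1.

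**Figure D4:**
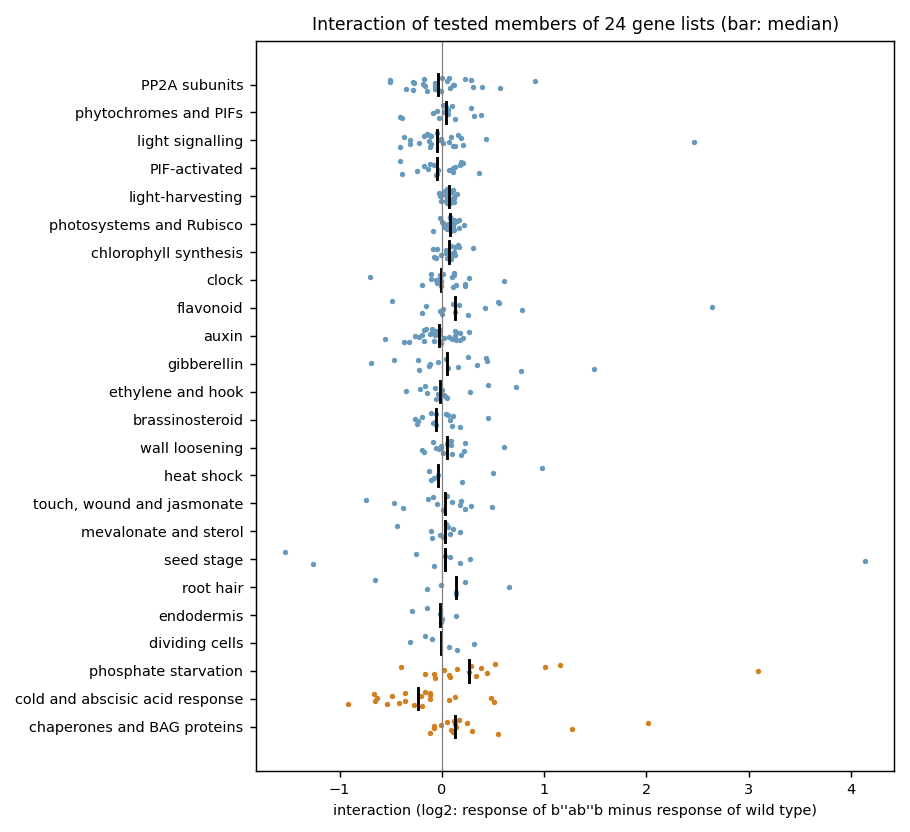
Interaction (log2) of each tested member of 24 gene lists, with the median as a bar; blue lists cover light, hormone and stage genes, and orange lists were chosen after values were seen. Medians lie between −0.24 (cold and abscisic acid response) and 0.27 (phosphate starvation), and single members reach 4.14.

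SPX1 (AT5G20150, chromosome 5, 6802282 to 6803655 in TAIR10.1) had the smallest p of all genes. It encodes a nuclear protein that binds the phosphate starvation regulator PHR1 when phosphate is ample. It stood at 12.9, 19.9 and 14.7 CPM in wild type dark and at 66.6, 77.5 and 65.2 CPM in wild type red. In the mutant it stood at 15.3, 14.2 and 10.7 CPM in the dark and at 145.2, 114.1 and 131.8 CPM in red light. The dark levels of the genotypes overlapped and every mutant red library lay above every wild type red library. SPX1 rose by 2.16 ± 0.15 (log2 ± SE) in the wild type and by 3.32 ± 0.14 in the mutant, and the interaction was 1.16 ± 0.22 (95% interval 0.70 to 1.62; edgeR unadjusted p = 2.65e-05, adjusted p = 0.491). The mutant was 1.88-fold higher in red light (edgeR adjusted p = 2.83e-04) and the dark difference was −0.25. DESeq2 called the interaction (adjusted p = 0.0299), and so did edgeR without wild type dark replicate 1 (1.32, adjusted p = 0.0377). It did not pass without both dark libraries that stood apart, a fit chosen after the data were seen (1.16, edgeR adjusted p = 0.0549). Over the 12 fits that each left out 1 library the value ran from 0.96 to 1.32.

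Because SPX1 led, a list of 20 phosphate starvation genes was drawn up after these values were seen, so no test was run on it. Of 17 tested members 13 had an interaction above 0 (51% of all genes), 4 of them at an unadjusted p under 0.05 (1.73% of all genes), and none was below 0 at that p. These 4 were SPX1, SRG3, PS2 and PS3. SPX1, PS2 and SRG3 ranked 1, 2 and 4 of all genes by p before the list was made, so these counts include the genes that prompted it. The median was 0.27 against 0.01 for all genes, and it was 0.17 without wild type dark replicate 2 and 0.18 without mutant red replicate 1 or mutant dark replicate 3. SRG3 (AT3G02040, chromosome 3, 348167 to 350010), a glycerophosphodiester phosphodiesterase gene also called GDPD1, stood at 28.9, 22.9 and 21.6 CPM in wild type dark and 22.5, 36.0 and 27.9 CPM in wild type red. Mutant libraries had 17.97, 22.9 and 27.4 CPM of SRG3 in the dark and 62.3, 44.3 and 54.9 CPM in red light. The first 3 groups overlapped and the mutant red group lay above them all. SRG3 did not pass in the wild type (0.21 ± 0.18) and rose by 1.21 ± 0.17 in the mutant, and the interaction was 1.01 ± 0.24 (edgeR unadjusted p = 4.30e-04, adjusted p = 1.00). The mutant was 1.88-fold higher in red light (edgeR adjusted p = 0.0161).

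The SRG3 counts are uncertain because 681 bases of its 3′ end overlap AT3G02030, a transferase gene on the opposite strand. AT3G02030 stood at 33.0 to 34.5 CPM in wild type red and 48.5 to 65.7 CPM in mutant red, and was also higher in the mutant there (log2 0.79, edgeR adjusted p = 0.0148). Its interaction was 0.40 ± 0.21 and did not pass. Which of the 2 genes gave these reads was not tested.

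The other phosphate genes were weaker or less well counted. PS2 (AT1G73010, chromosome 1, 27464528 to 27466348), a phosphate-responsive pyrophosphatase gene, stood at 2.31, 0.827 and 2.19 CPM in wild type dark and 0.980, 2.98 and 1.12 CPM in wild type red. Mutant libraries had 0.339, 0.674 and 0.987 CPM of PS2 in the dark and 5.04, 6.65 and 5.74 CPM in red light. The mutant red libraries lay above all others and the mutant dark libraries held few counts. The interaction of PS2 was 3.10 ± 0.72 (edgeR unadjusted p = 2.65e-04, adjusted p = 1.00), and it ran from 2.79 to 3.72 as each library was left out. PS3, a glycerol-3-phosphate transporter gene, rose in both genotypes, from 17.7 to 20.4 CPM to 71.0 to 81.3 CPM in the wild type and from 15.004 to 21.1 CPM to 89.7 to 106.1 CPM in the mutant (interaction 0.44 ± 0.18, edgeR unadjusted p = 0.0229). The PHR1 gene (0.07 ± 0.14), the phosphate importer gene PHT1;1 (−0.07 ± 0.18) and the phosphate exporter gene PHO1 (−0.06 ± 0.19) were close to 0.

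The promoters of the 3 phosphate genes with the largest interactions were read for P1BS, the palindrome GNATATNC that PHR1 is known to bind. The 250 bases before the annotated start are shown 5′ to 3′ on the gene's strand, from the TAIR10.1 genome and its RefSeq annotation, with P1BS in capitals. SPX1 is at chr5:6802032-6802281 on the plus strand, PS2 at chr1:27466349-27466598 on the minus strand and SRG3 at chr3:350011-350260 on the minus strand.
SPX1: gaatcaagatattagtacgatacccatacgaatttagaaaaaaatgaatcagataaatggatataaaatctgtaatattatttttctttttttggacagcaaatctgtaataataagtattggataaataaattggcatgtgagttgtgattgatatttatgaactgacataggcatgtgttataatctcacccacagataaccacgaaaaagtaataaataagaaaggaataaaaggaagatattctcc
PS2: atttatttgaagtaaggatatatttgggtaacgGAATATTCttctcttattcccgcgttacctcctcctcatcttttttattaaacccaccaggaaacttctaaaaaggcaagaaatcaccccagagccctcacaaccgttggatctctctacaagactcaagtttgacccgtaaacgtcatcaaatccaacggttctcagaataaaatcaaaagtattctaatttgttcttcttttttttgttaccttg
SRG3: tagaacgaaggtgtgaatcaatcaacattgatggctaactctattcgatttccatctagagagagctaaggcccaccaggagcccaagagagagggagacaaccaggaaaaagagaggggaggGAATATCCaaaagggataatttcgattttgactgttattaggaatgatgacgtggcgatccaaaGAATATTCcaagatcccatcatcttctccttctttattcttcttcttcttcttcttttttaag
The window of SRG3 holds 2 copies, that of PS2 holds 1 and that of SPX1 none. Read on both strands, the motif is in 5.46% of 27443 promoters of this length and in 5 of the 20 promoters of the phosphate list. Genes and motif were chosen after values were seen, a match is a description of letters and not a binding site, and the absence in SPX1 concerns this window alone.

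BAG7 (AT5G62390, chromosome 5, 25051978 to 25054444), a co-chaperone of the endoplasmic reticulum, had a large difference and a wide spread. It stood at 154.5, 207.4 and 493.7 CPM in wild type dark and at 223.4, 465.4 and 173.3 CPM in wild type red. Mutant libraries had 321.5, 370.6 and 152.2 CPM of BAG7 in the dark and 1129, 915 and 1401 CPM in red light. The first 3 groups overlapped, and the mutant red group was above all 9 other libraries. BAG7 did not pass in the wild type (0.02 ± 0.34) and rose by 2.04 ± 0.35 in the mutant. The interaction was 2.02 ± 0.49 (95% interval 1.01 to 3.02; edgeR unadjusted p = 4.09e-04, adjusted p = 1.00), and the mutant was 4.01-fold higher in red light (edgeR adjusted p = 0.0143). Without wild type dark replicate 1 the interaction passed (2.32, edgeR adjusted p = 0.0388). It also passed without that library and mutant dark replicate 3, a fit chosen after the data were seen (2.01, edgeR adjusted p = 0.00160). Leaving out wild type dark replicate 3 gave 1.36, and leaving out wild type red replicate 2 gave 2.54.

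A list of chaperone genes that includes BAG7 was drawn up after BAG7 was seen, with no test on the list. Of 16 tested members 12 had an interaction above 0 (51% of all genes), and the median was 0.12. At an unadjusted p under 0.05, 3 were above 0 (1.73% of all genes) and none below. These 3 were BAG7 itself, Hop3 and ROF1, so the gene that prompted the list is in both counts. Hop3, which links the HSP70 and HSP90 chaperones, rose from 2.89, 2.48 and 3.44 CPM to 19.6, 15.4 and 13.9 CPM in the wild type. The rise of Hop3 in the mutant was from 1.36, 1.80 and 1.38 CPM to 22.4, 21.3 and 18.7 CPM. The genotypes did not overlap in the dark and overlapped in red light, and the interaction was 1.28 ± 0.39 (edgeR unadjusted p = 0.00371, adjusted p = 1.00). Hop3 overlaps AT4G12390 on the opposite strand by 163 bases, and BAG7 overlaps AT5G62380 by 77 bases, so some of their reads could belong to these neighbours. ROF1, a heat-responsive prolyl isomerase gene, rose by 0.69 in the wild type and by 0.98 in the mutant (interaction 0.30 ± 0.13, edgeR unadjusted p = 0.0332). HSP90.1 was 1.53-fold higher in the mutant in red light (edgeR adjusted p = 0.0494), with an interaction of 0.50 ± 0.30. The endoplasmic reticulum chaperone genes BIP1 (0.09 ± 0.11), BIP2 (0.11 ± 0.11) and CRT1 (−0.07 ± 0.13) were close to 0. The 13 genes of the heat shock list summed to 557.5 to 587.7 CPM in wild type red and 624.6 to 645.5 CPM in mutant red, from 57.2 to 69.2 and 57.3 to 77.7 CPM in the dark, and 7 of them were abundant enough to test. Their median interaction was −0.04, with 3 of the 7 above 0 and none at an unadjusted p under 0.05. The tested members thus did not share a single direction of the interaction, which is a different measure from the sums of red levels.

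DIN2 (AT3G60140, chromosome 3, 22216540 to 22220824), a β-glucosidase gene induced by darkness and sugar starvation, led the genes with a negative interaction. It stood at 76.5, 52.7 and 53.2 CPM in wild type dark and 75.9, 63.4 and 71.5 CPM in wild type red. The mutant held 54.3, 53.9 and 49.0 CPM of DIN2 in the dark and 31.8, 36.0 and 38.9 CPM in red light. The mutant red libraries lay below all others, while the wild type dark and red libraries overlapped through dark replicate 1. DIN2 did not pass in the wild type (0.19 ± 0.12) and fell by 0.56 ± 0.14 in the mutant. The interaction was −0.75 ± 0.18 (95% interval −1.13 to −0.37; edgeR unadjusted p = 4.92e-04, adjusted p = 1.00), and the mutant was 1.98-fold lower in red light (edgeR adjusted p = 4.93e-04). Without wild type dark replicate 1 the interaction passed (−0.97, edgeR adjusted p = 0.0313). It also passed without both dark libraries that stood apart, a fit chosen after the data were seen (−1.02, edgeR adjusted p = 0.00160). Over the fits that each left out 1 library the value ran from −0.97 to −0.66, and no other of these passed.

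**Figure D5:**
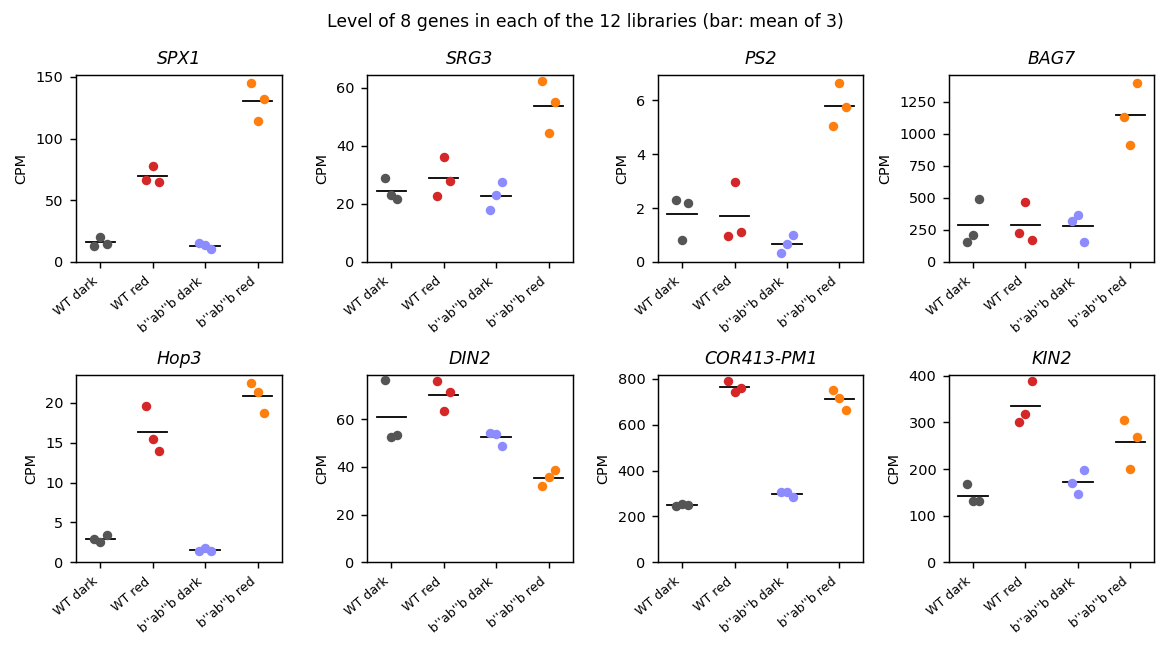
Level (CPM) of 8 genes in each of the 12 libraries, 3 points per group with the mean as a bar. SPX1, SRG3, PS2 and BAG7 are highest in the mutant red libraries, DIN2 is lowest there, and COR413-PM1 and KIN2 rise in both genotypes.

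COR413-PM1 (AT2G15970, chromosome 2, 6949851 to 6951192), a cold-induced plasma membrane protein gene, had the smallest standard error of the 8 abundant genes of smallest p in each direction. It stood at 246.5, 254.3 and 250.5 CPM in wild type dark and at 790.1, 741.7 and 760.9 CPM in wild type red. The mutant held 307.9, 304.9 and 282.9 CPM of this transcript in the dark and 752.6, 715.9 and 664.0 CPM in red light. The mutant was above the wild type in every dark library and overlapped it in red light. The rise was 1.61 ± 0.07 in the wild type and 1.25 ± 0.07 in the mutant, and the interaction was −0.36 ± 0.09 (95% interval −0.55 to −0.16; edgeR unadjusted p = 9.30e-04, adjusted p = 1.00). Neither genotype comparison passed for COR413-PM1, and the interaction ran from −0.41 to −0.32 as each library was left out.

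A list of 20 genes of the cold and abscisic acid response was then drawn up after values were seen and was not tested. Its 20 tested members included COR413-PM1, whose value had been seen before. Of the 20, 4 had an interaction above 0 (51% of all genes), and the median was −0.24. At an unadjusted p under 0.05, 6 were below 0 (1.59% of all genes), COR413-PM1 among these, and none above. Red light raised 16 of the 20 in the wild type (10.6% of all genes) and 12 in the mutant (10.7% of all genes). The difference between these counts was not tested. KIN2, a small protective protein gene of cold and drought, stood at 168.1, 130.4 and 130.9 CPM in wild type dark and 301.6, 317.8 and 389.1 CPM in wild type red. KIN2 in the mutant was at 169.5, 146.3 and 198.6 CPM in the dark and 305.7, 199.7 and 268.1 CPM in red light. KIN2 rose in both genotypes, by 1.23 and 0.59, with an interaction of −0.64 ± 0.19 (edgeR unadjusted p = 0.00298). Its tandem neighbour KIN1 had −0.92 ± 0.32, and since these are near copies the split of reads between them is uncertain.

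LTI78, a classical marker of cold and drought, rose by 1.26 in the wild type and by 0.60 in the mutant (interaction −0.66 ± 0.23, edgeR unadjusted p = 0.00972). CYP707A1, an enzyme that breaks down abscisic acid, rose in the wild type from 12.7, 16.8 and 19.1 CPM to 29.9, 30.9 and 33.3 CPM. In the mutant it stood at 21.7, 23.4 and 20.5 CPM in the dark and at 28.2, 27.7 and 26.7 CPM in red light, a change that did not pass (0.33 ± 0.14), and the interaction was −0.65 ± 0.20 (edgeR unadjusted p = 0.00300). Each mutant level of CYP707A1 lay between the wild type dark and red levels. The dehydrin gene ERD10 (−0.27 ± 0.11) was lower at an unadjusted p under 0.05, while COR47 (−0.11 ± 0.08), the abscisic acid phosphatase gene ABI1 (−0.20 ± 0.17) and the abscisic acid synthesis gene NCED3 (−0.54 ± 0.51) were not.

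The promoters of LTI78 and COR413-PM1 are shown for the CRT/DRE core CCGAC, the element that the cold regulators of the CBF family are known to bind. They are laid out like the phosphate promoters, with CCGAC in capitals, at chr5:21240467-21240716 and chr2:6949601-6949850, both on the plus strand.
LTI78: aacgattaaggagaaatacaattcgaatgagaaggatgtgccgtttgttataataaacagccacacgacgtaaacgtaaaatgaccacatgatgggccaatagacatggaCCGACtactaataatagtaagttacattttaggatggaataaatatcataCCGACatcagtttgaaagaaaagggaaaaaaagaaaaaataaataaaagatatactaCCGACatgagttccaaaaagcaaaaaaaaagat
COR413-PM1: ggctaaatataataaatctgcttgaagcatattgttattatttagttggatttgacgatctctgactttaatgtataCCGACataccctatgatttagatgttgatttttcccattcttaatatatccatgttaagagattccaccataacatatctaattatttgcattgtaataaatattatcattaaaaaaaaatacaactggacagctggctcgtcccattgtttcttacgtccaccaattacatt
The window of LTI78 holds 3 copies and that of COR413-PM1 holds 1. On both strands the core is in 12% of 27443 promoters and in 5 of the 20 promoters of the cold list, and that of KIN2 has none. The abscisic acid element core ACGTG, whose first letters can be the last of CCGAC, is in 22.9% of promoters and in 12 of the 20.

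The remaining genes of smallest p came from varied pathways, and each had an edgeR adjusted p of 1.00. AT5G30495, a pre-rRNA processing gene, went from 9.44, 9.10 and 10.02 CPM to 9.55, 11.9 and 9.44 CPM in the wild type. Its mutant levels fell from 9.83, 14.6 and 12.6 CPM to 6.18, 5.82 and 6.49 CPM, below every other library (interaction −1.13 ± 0.28). ZIFL1, a membrane transporter gene, had every red library above every dark library in the wild type (22.2 to 30.0 against 32.8 to 35.7 CPM). In the mutant every red library of ZIFL1 was below every dark library (31.0 to 36.6 against 24.7 to 30.5 CPM), with an interaction of −0.67 ± 0.18; the mutant change did not pass. FMO GS-OX4, an enzyme of glucosinolate side chains, rose by 1.09 in the wild type and 0.57 in the mutant (interaction −0.52 ± 0.14). HSPRO2 fell by 0.65 in the wild type and by 1.08 in the mutant (interaction −0.43 ± 0.12). AT3G16350, a homeodomain-like gene, rose by 2.04 and 1.11 (interaction −0.94 ± 0.25), and the peroxidase gene AT3G28200 had −0.50 ± 0.14.

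On the positive side, CP12-3, of a family of small regulators of Calvin cycle enzymes, fell in the wild type from 22.3, 20.96 and 23.2 CPM to 11.8, 9.75 and 11.02 CPM. In the mutant it stood at 17.97, 11.2 and 17.57 CPM in the dark and 12.8, 13.3 and 14.7 CPM in red light, which overlapped (interaction 0.84 ± 0.25). RSW10, a ribose-5-phosphate isomerase gene, had 0.97 ± 0.28, and the uncharacterised AT3G59870 had 0.87 ± 0.24. AT4G05775 (0.96 ± 0.27), annotated as an RNA, and AT4G03180 (0.78 ± 0.24) overlap other genes on the opposite strand, so their counts are uncertain.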

How the data were processed

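Whole-number counts per gene and library were used as deposited by the authors, in 1 table for all 12 libraries. TAIR10 is the build, and HISAT2, HTSeq, FastQC and edgeR the tools, in the submitters' processing notes. Their versions and settings, strand included, were not given in the sources used. The 5 HTSeq summary lines were left out (ambiguous reads equalled 0.943 to 1.28% of the gene counts). Columns were matched to samples by title, in one of which Col-0 is spelled C-ol-0. All 32548 locus identifiers matched TAIR10.1, which supplied names, coordinates and promoters, and 1107 other identifiers were kept as given.

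The test was the quasi-likelihood test of edgeR 4.0.16 (R 4.3.3), fitted once to all libraries with group terms after filterByExpr (minimum count 10) and TMM scaling. Benjamini-Hochberg adjustment ran over 18487 genes, with a threshold of 0.05. The SE is the log2 value divided by the square root of F. Scripts were tested on simulated data. Replicates differed by more than sampling noise (chi-square per degree of freedom 1.54 to 4.01), so each was counted. Alternatives were DESeq2 1.42.0, limma-voom 3.58.1, RLE factors, no filter, a mean of at least 5 CPM, 2 replicate blocks and each library left out. Figures were drawn with python 3.11.15 and matplotlib 3.10.9.

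Members, lists, tests and the naming rule were chosen with earlier results of these data known. The rule took the B''α and B''β genes, the 8 genes of smallest p in each direction among abundant genes (mean log2 CPM from 3), the 6 risen and 6 fallen genes with the largest mean response, the member of smallest p in each of 21 lists, and 18 light response genes. Members of the 3 lists on phosphate, cold and chaperones, and other genes outside the rule, were picked with their values in view. Subjects of the 21 lists were light signalling, phytochromes and PIFs, PP2A subunits, and PIF-activated, light-harvesting, photosystem and Rubisco, chlorophyll, clock, flavonoid, auxin, gibberellin, ethylene and hook, brassinosteroid, wall loosening, heat shock, touch, mevalonate and sterol, seed stage, root hair, endodermis and dividing cell genes.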

Additional observations from a re-analysis of the deposited data

How the results depend on the processing

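The count of called interactions was 0 with limma-voom, RLE factors, a mean of at least 5 CPM and both replicate blocks, 1 with DESeq2 (231 genes at an unadjusted p under 0.05) and 28 without a filter on low counts (20 above 0, 8 below), among them SPX1, SRG3, PS2, BAG7, DIN2 and KIN2. Without the filter 25938 genes were fitted and the estimated prior degrees of freedom were infinite, against 14.2 with it, and 18 of the 28 had an unadjusted p under 0.05 with the filter. Leaving out each library gave 0 to 3 calls; the 3, DIN2, SPX1 and BAG7, came without wild type dark replicate 1 and the other 11 fits gave 0. In these fits 571 to 977 genes had an unadjusted p under 0.05, the most without mutant dark replicate 3. The median interaction ran from −0.0204 to 0.0208 for the risen set and from −0.11 to −0.0667 for the fallen set. Without both dark libraries that stood apart, chosen after the data were seen, there were 2 calls, DIN2 and BAG7, and the fallen median was −0.0495. At a mean of at least 5 CPM, 71.2% of the fallen set had an interval within −1 to 1. Replicate numbers showed no clear pairing of the samples, though 3 libraries per group cannot exclude it. Correlations of deviations for 18 same-number pairs ran from −0.25 to 0.24, 2 over 0.1, and 2 of 12 libraries were closest to their own number. The replicate block gave 0 calls, with 559 genes at an unadjusted p under 0.05. Of 2351 values of single genes under the alternatives, 97 had the other sign, and none of those was called. Half-widths of the 95% intervals had a median of 0.42 for genes with a mean log2 CPM of 3 or more and of 1.02 for the others.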

Other observations

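Genes of late embryogenesis abundant (LEA) proteins, which protect drying seed cells, made up 8 of the 22 abundant genes (mean log2 CPM from 3) with an interaction of at least 1 in size, and all 8 were above 0, from 1.49 to 2.71. By the annotated product, 28 of the 13550 abundant genes (0.207%) encode LEA proteins, and 17 of those 28 were above 0. The group was named after its values were seen and was not tested. With the filter on low counts edgeR tested all 8 and called none, and without it edgeR called 7 (adjusted p from 5.56e-18 to 0.0352). The unfiltered fit had infinite prior degrees of freedom, so it gave no weight to the spread among a gene's own replicates. AT3G02480 had an edgeR unadjusted p of 0.0953 with the filter and an adjusted p of 1.39e-12 without it. AT5G44060, high in 1 library only, had an edgeR adjusted p of 2.02e-73 in the unfiltered fit. LEA4-5 stood at 74.1, 10.2 and 20.04 CPM in wild type dark, 52.7, 94.0 and 40.5 CPM in wild type red, 5.76, 6.52 and 4.54 CPM in mutant dark and 34.6, 40.4 and 44.2 CPM in mutant red (interaction 2.11 ± 0.68, edgeR unadjusted p = 0.00502). LEA7 stood at 33.7, 4.41 and 5.01 CPM, 8.82, 33.6 and 7.19 CPM, 2.71, 0.674 and 0.987 CPM, and 5.95, 3.6 and 13.0 CPM in the same order. Both were high in wild type dark replicate 1, which stood apart on the second component, and in wild type red replicate 2. Mutant dark replicate 3 also stood apart but held only 4.54 CPM of LEA4-5 and 0.987 CPM of LEA7. Of the red libraries, wild type replicate 2 (score 12.1) and mutant replicate 3 (13.7) were highest on that component. Among the mutant red libraries, replicate 3 was the highest for all 8. The margin was small for LEA4-5 and large for AT3G02480 (8.93, 8.03 and 40.2 CPM) and AT3G15670 (2.98, 2.77 and 16.5 CPM). Whether these libraries set the interaction of the LEA genes was not tested.

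Single libraries carried some other large values. AT5G44060, an embryo sac development gene, reached 464.5 CPM in wild type red replicate 1 and 14.1 to 25.4 CPM in the other 11 libraries (interaction −3.57 ± 1.17). AT5G44410, a berberine bridge family gene, reached 91.8 CPM in mutant red replicate 1 and 7.35 to 12.5 CPM elsewhere (interaction 2.49 ± 0.83). AT5G62290, a chloride conductance regulator family gene, reached 45.2 CPM in wild type red replicate 3 and 4.99 to 11.9 CPM elsewhere (interaction −1.36 ± 0.69). NRPA2, a subunit gene of RNA polymerase I, varied widely within groups, from 184.8 to 598.1 CPM in wild type red and from 259.9 to 759.5 CPM in mutant red (interaction 1.11 ± 0.46).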
